A study of Drosophila melanogaster with 4 samples.

Results

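The lysozymes of Drosophila melanogaster named by the letters B, C, D, E, P, S and X were followed in whole adult females after treatment with juvenile hormone III (JH III). Members were the probe sets whose platform annotation gives a single symbol made of Lys and one capital letter, and they numbered 7 of 13966 once the array's control probe sets were set aside. All 7 passed the filter on low signal, and 10474 probe sets did so in all. No probe set (0) listed several of these genes. The array also carries control probe sets labelled LysX that read a bacterial lys transcript. They are unrelated to the fly gene LysX and were not counted as members.

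The study measured 4 RNA samples, 2 per treatment and each from 30 pooled females, on 1 Affymetrix DrosGenome1 array per sample. All flies were of the strain y, w, were kept on food without yeast for the first 5 days after eclosion and were chilled on ice for treatment. The JH III flies received 0.1 µl of acetone holding the hormone at 187 mM on the body surface, and the control flies received 0.1 µl of acetone alone. Flies were frozen 12 hours later. The labels give the diet as a way to bring down the flies' own hormone, so that both groups are models of a starved female and not of a fed one.

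Lysozymes cut the sugar backbone of peptidoglycan, the polymer that forms bacterial cell walls. In flies the genes of this chicken-type family are known mainly as digestive enzymes of the gut, which serve an animal that feeds on microbes, rather than as peptides released into the blood on infection. LysB, LysC, LysD and LysE are close copies of one another known from the midgut, LysP is known from the adult salivary gland, LysS from the larval gut and LysX from the gut around metamorphosis. Juvenile hormone is a sesquiterpenoid that directs egg production in adult insects, and the labels place these arrays in a study of whether it lowers immune gene expression.

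The family lies together in the genome. In the RefSeq annotation (assembly Release 6) all 7 genes are on chromosome arm 3L, in a run of 11 genes from LysX to LysS. The other 4 genes of that run lie between LysX and LysB, and LysB, LysC, LysD, LysE, LysP and LysS follow one another without interruption. RefSeq lists LysC as a pseudogene and the others as protein coding. The Entrez numbers of 6 members matched that table and LysC was matched by its symbol.

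The probe sets fall into 2 kinds. Those of LysB, LysC, LysD and LysE carry the suffix _f_at, which Affymetrix gives to probe sets whose probes can also bind other members of a gene family, and those of LysP, LysS and LysX carry the plain suffix _at. Signals of the 4 family probe sets may therefore hold RNA of one another's genes, and the value printed for any of them is that of its probe set. A signal of one probe set says nothing about its level against another, because probes differ in how well they bind.

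All 7 members exceeded a control level on all 4 arrays. This level was the 95th percentile of 23 control probe sets whose targets were not added (369 and 240 with JH III, 139 and 295 with acetone). LysC came closest to it, at 417 in JH III replicate 1 against a level of 369. Signals are the deposited linear intensities, which the authors had scaled so that the 2% trimmed mean of each array was 500.1. In RNA from whole flies, fewer cells of a type and less RNA per cell cannot be told apart.

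No lysozyme passed the test between treatments. limma called 0 of the 7 at an adjusted p of 0.05, and 0 of the 7 had an unadjusted p under 0.05. Over the whole array 0.162% of the tested probe sets were called and 7.29% had an unadjusted p under 0.05, so a count of 0 among 7 is near the background. By the methods' t-test, LysP had an unadjusted p under 0.05, as did 606 of the 10474 tested probe sets, and no member (0) passed after adjustment. The members did not share a direction: 5 had a positive difference, as did 56.1% of all tested probe sets, and 2 a negative one, with a median of 0.12 against 0.10 over all tested probe sets. In 3 of the 7 (LysB, LysP and LysX) the groups did not overlap, as in 37.5% of all tested probe sets.

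**Figure D1:**
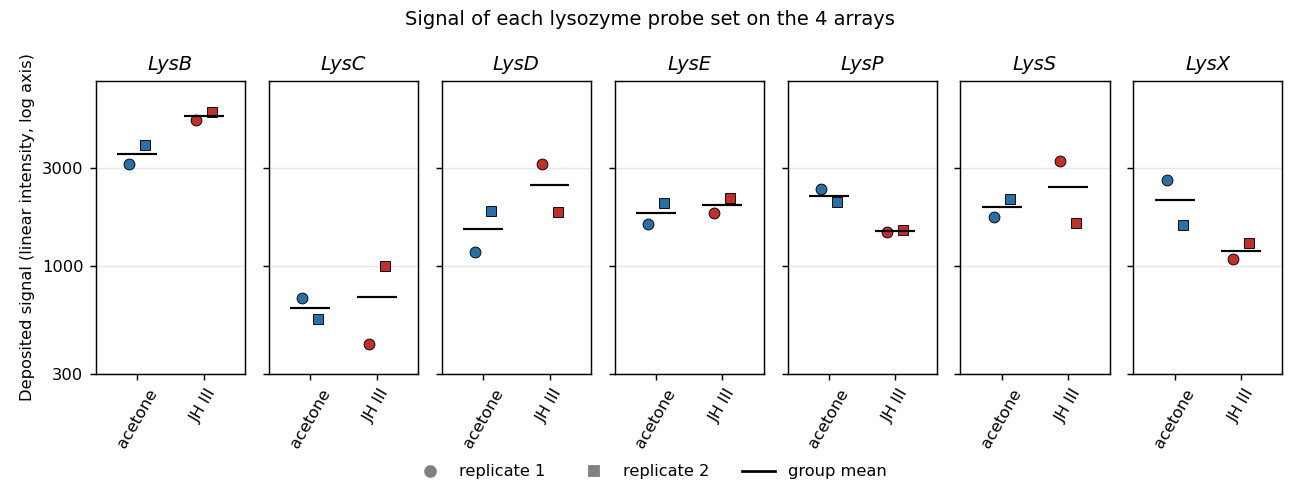
Deposited signal (linear intensity, drawn on a log axis) of each lysozyme probe set in the acetone and JH III arrays, with circles for replicate 1, squares for replicate 2 and a bar for the group mean. LysB is higher with JH III than with acetone on all arrays, LysP and LysX are lower, and the other 4 overlap.

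Among the family probe sets, that of LysB, a midgut lysozyme, was the member whose groups stood apart upwards. Its signal was 5150 and 5626 with JH III and 3146 and 3897 with acetone, or 5388 ± 336 against 3522 ± 531 (SD, n = 2 each). Both JH III arrays lay above both acetone arrays, as 22.2% of all tested probe sets did in this direction. The log2 difference, JH III minus acetone on the scale of log2(signal + 83), was 0.61 ± 0.35 (SE, 95% interval -0.08 to 1.30, limma adjusted p = 0.757). Replicates of LysB differed 1.09-fold within JH III and 1.24-fold within acetone. Its difference stayed positive in each alternative that could move it, from 0.37 after median centring to 0.95 after quantile normalization.

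The LysD probe set had the most positive difference of the 7 but not separate groups. Its signal was 3151 and 1851 with JH III and 1173 and 1871 with acetone, so that JH III replicate 2 and acetone replicate 2 were nearly equal. Replicates differed 1.70-fold within JH III and 1.60-fold within acetone. The log2 difference was 0.67 ± 0.37 (SE, 95% interval -0.07 to 1.42, limma adjusted p = 0.748). Without JH III replicate 1 it was 0.30, and without JH III replicate 2 it was 1.05.

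LysE and LysC had differences smaller than the spread of replicates. The LysE probe set read 1815 and 2154 with JH III and 1609 and 2042 with acetone, and its groups interleaved. Its log2 difference was 0.12 ± 0.37 (SE, 95% interval -0.61 to 0.85, limma adjusted p = 0.954), turning to -0.12 after median centring. The LysC probe set, whose gene RefSeq lists as a pseudogene, read 417 and 1009 with JH III and 702 and 554 with acetone. Its lowest and its highest value both came from JH III, a 2.42-fold gap between replicates of 1 treatment. Its log2 difference was 0.06 ± 0.50 (SE, 95% interval -0.92 to 1.05, limma adjusted p = 0.985), and it turned to -0.10 after quantile normalization and -0.17 after median centring. It was -0.50 without JH III replicate 2, 0.63 without JH III replicate 1 and -0.09 without acetone replicate 2.

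Among the probe sets without the family suffix, LysP, the salivary gland lysozyme, had the closest replicates. It read 1470 and 1497 with JH III and 2377 and 2052 with acetone, or 1484 ± 19.1 against 2215 ± 229 (SD, n = 2 each). Both JH III arrays lay below both acetone arrays, as 15.3% of all tested probe sets did in this direction. The log2 difference was -0.55 ± 0.37 (SE, 95% interval -1.28 to 0.18, limma adjusted p = 0.767). The SE draws on the spread of all probe sets of like signal, and it is larger here than the spread of LysP's own 2 pairs. In the alternatives the difference ran from -0.79 after median centring to -0.37 after quantile normalization.

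LysX, the lysozyme known from the gut around metamorphosis, had the most negative difference of the 7. It read 1082 and 1307 with JH III and 2631 and 1590 with acetone, or 1195 ± 159 against 2110 ± 736 (SD, n = 2 each). The groups did not overlap, but the 2 acetone arrays lay 1.65-fold apart, farther than the gap between acetone replicate 2 and JH III replicate 2. The log2 difference was -0.74 ± 0.38 (SE, 95% interval -1.50 to 0.02, limma adjusted p = 0.699). Without acetone replicate 1 it was -0.39, and without acetone replicate 2 it was -1.09. Of all tested probe sets, 10.3% had a lower difference than LysX.

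LysS, the lysozyme known from the larval gut, followed neither direction. It read 3255 and 1629 with JH III and 1735 and 2139 with acetone, with both acetone values between those of JH III. The log2 difference was 0.25 ± 0.37 (SE, 95% interval -0.49 to 0.99, limma adjusted p = 0.907). It was 0.73 without JH III replicate 2 and -0.23 without JH III replicate 1, and it came to 0.01 after median centring.

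**Figure D2:**
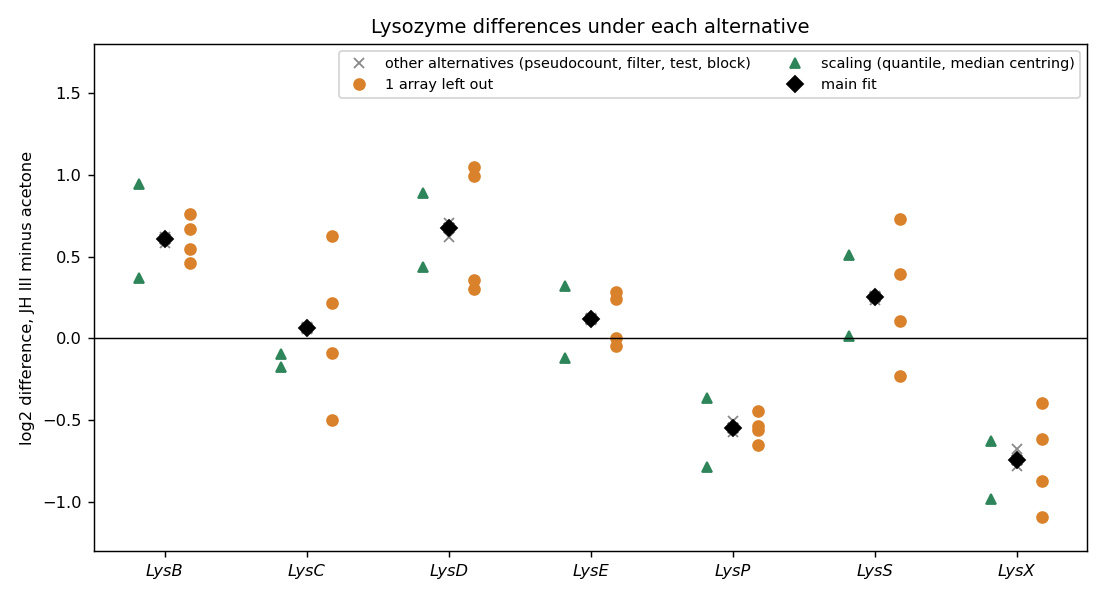
Log2 difference, JH III minus acetone, of each lysozyme probe set in the reported fit (diamonds), after another scaling (triangles), with 1 array left out (circles) and with another pseudocount, filter or test (crosses). LysB and LysD stay above 0 and LysP and LysX below it, while LysC, LysE and LysS cross 0 in at least 1 alternative. A change of filter or test leaves the difference as it was.

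These differences sit on an overall shift between the groups. The median difference of all tested probe sets was 0.10, and relative to it LysB was at 0.51, LysD at 0.57, LysS at 0.15, LysE at 0.02, LysC at -0.04, LysP at -0.65 and LysX at -0.84. The contrast of 1 lysozyme with another on the same array is not moved by centring that array. The pair LysB and LysX was taken as an example after their values were seen, and is given without a test. The log2 value of LysB exceeded that of LysX by 2.17 and 2.04 with JH III and by 0.25 and 1.25 with acetone. Only the change of this gap has a meaning, 1.35 between the groups. It was 1.58 after quantile normalization and 1.26 to 1.40 with the other pseudocounts. It was 0.85 without acetone replicate 1 and 1.85 without acetone replicate 2, so the gap depended on which acetone array was used.

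The arrays differed in quality. JH III replicate 1 had Spearman correlations of 0.582 to 0.586 with the other arrays, which correlated at 0.719 to 0.765 with one another. The hybridisation spikes of that array had a geometric mean of 54170, against 7794 to 22915 on the others. For the control gene GAPDH, the signal at the 3' end over that at the 5' end was 2.32 and 5.75 with JH III and 15.5 and 10.2 with acetone. For eIF-4a it was 18.3 and 18.9 with JH III and 75.0 and 46.8 with acetone, and for actin, where the groups overlapped, 3.40 and 16.7 with JH III and 35.6 and 14.2 with acetone. The signals of LysP and LysX ranked over the 4 arrays in the same order as the GAPDH and eIF-4a ratios but not as that of actin. Those of LysD ranked in the reverse order of the actin ratio. Those of LysB ranked in the reverse order of the GAPDH and eIF-4a ratios, except within JH III. LysC, LysE and LysS matched none of these orders in full. The part of RNA quality in the differences of the members was not tested. By the clock time of their scans, both acetone arrays came before both JH III arrays, and scan dates were not compared. The acetone arrays ran on fluidics modules 1 and 2 and the JH III arrays on 3 and 4. Module and treatment therefore cannot be told apart. Without their dates, the clock times do not give the order of the scans. Acetone replicate 1 was the 1 array of another chip lot, so that values without it are those within a lot. They were 0.46 for LysB, 0.21 for LysC, 0.36 for LysD, -0.04 for LysE, -0.45 for LysP, 0.11 for LysS and -0.39 for LysX, each a log2 difference.

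The array-to-array patterns of the members were compared with one another. With each probe set centred on its own mean over the 4 arrays, the nearest pair was LysP and LysX, at a Euclidean distance of 0.43 log2 units. LysB and LysE followed at 0.50 and LysD and LysS at 0.52, and the farthest pair was LysD and LysX at 1.84. Many genes outside the family were nearer: 118 named probe sets lay within 0.25 of LysP and 46 within 0.25 of LysX. The members were thus not set apart by their likeness to one another. The close copies did not vary as one: LysC and LysD were 1.60 apart and LysB and LysD 0.66. LysD and LysS, which belong to different kinds of probe set, shared a peak in JH III replicate 1, the array that correlated least with the others.

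**Figure D3:**
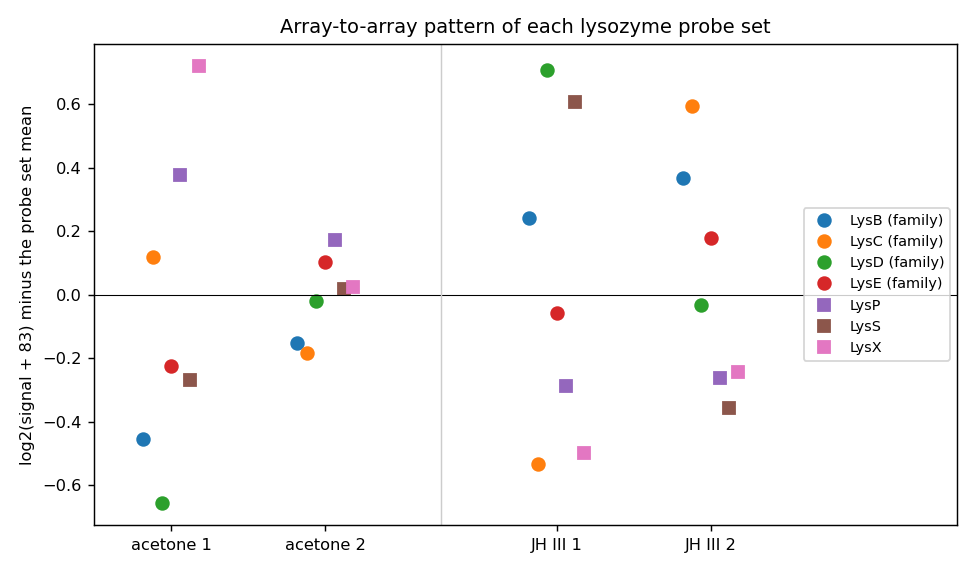
Log2(signal + 83) of each lysozyme probe set minus its own mean over the 4 arrays, by array, with circles for probe sets of the family kind and squares for the others. LysP and LysX are above their means in both acetone arrays and below in both JH III arrays, and LysD and LysS are highest in JH III replicate 1.

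The genes outside the family with the nearest patterns were found by the same distance over 4 arrays, among 9329 probe sets with 1 symbol. Nearest to LysB were E(spl)m4-BFM (distance 0.041), ova (0.082) and sdt (0.085). Nearest to LysC were mew (0.054), AQP (0.061) and CG17544 (0.10), and to LysD were IntS14 (0.024), axo (0.065) and sxc (0.069). For LysE they were CG1544 (0.046), CG15019 (0.048) and emp (0.049). LysP had ND-15 (0.030), nom (0.047) and CtsL1 (0.067), LysS had kek6 (0.038), Pex2 (0.047) and jim (0.050), and LysX had nito (0.090), Vha100-1 (0.091) and SdhD (0.092). Of these genes E(spl)m4-BFM and kek6 were under the control level on all 4 arrays, IntS14 and nito on 3, and mew and CG17544 on 1. Such nearness is common with 4 arrays, since 41 (LysC) to 201 (LysE) of these probe sets lay within 0.25 of a lysozyme.

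Other genes coding for chicken-type lysozyme domains gave no call. Of 6 listed, 5 were measured and 4 tested, of which 0 passed (median 0.17, against 0.10 over all tested probe sets). CG11159 read 857 and 791 with JH III and 523 and 114 with acetone, where the lower value was under the control level. Its groups did not overlap, as in 22.2% of all tested probe sets in this direction. Its log2 difference was 1.39 ± 0.56 (SE, limma adjusted p = 0.562, unadjusted p = 0.016). The others tested were CG16756 (0.33), CG16799 (0.00) and CG7798 (-0.46). CG7798 was above the control level in acetone replicate 1 alone, and without that array its difference was 0.13. CG8492 was under the control level on all arrays, and CG30062 had no probe set of its own.

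Invertebrate-type lysozymes, a separate family, had negative differences that did not pass the test. Those of CG6421, CG6429 and CG6435 leaned on 1 array. All 5 listed genes were measured and tested, 0 were called and all 5 had a negative difference (-1.27 to -0.78, median -0.89, against 0.10 over all tested probe sets). In 3 of them, CG6426, CG6435 and CG14823, both JH III arrays lay below both acetone arrays, where the background is 15.3%. CG6426 was the brightest, with 812 and 815 with JH III and 2356 and 1834 with acetone (log2 difference -1.27 ± 0.39 SE, limma adjusted p = 0.288, unadjusted p = 0.002). CG6421 read 159 and 733 with JH III and 1031 and 514 with acetone, so its low mean came from JH III replicate 1. CG6429 read 74.6 and 456 with JH III and 447 and 392 with acetone. Without JH III replicate 1, the array that stood apart, 3 of the 5 were negative (median -0.28). CG6421 was then at 0.00, CG6429 at 0.10, CG6435 at -0.28, CG14823 at -0.88 and CG6426 at -1.27. CG6421, CG6429 and CG6435 were under the control level in JH III replicate 1, and CG14823 in all arrays but acetone replicate 1. The difference between this family and the chicken-type one was not tested.

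**Figure D4:**
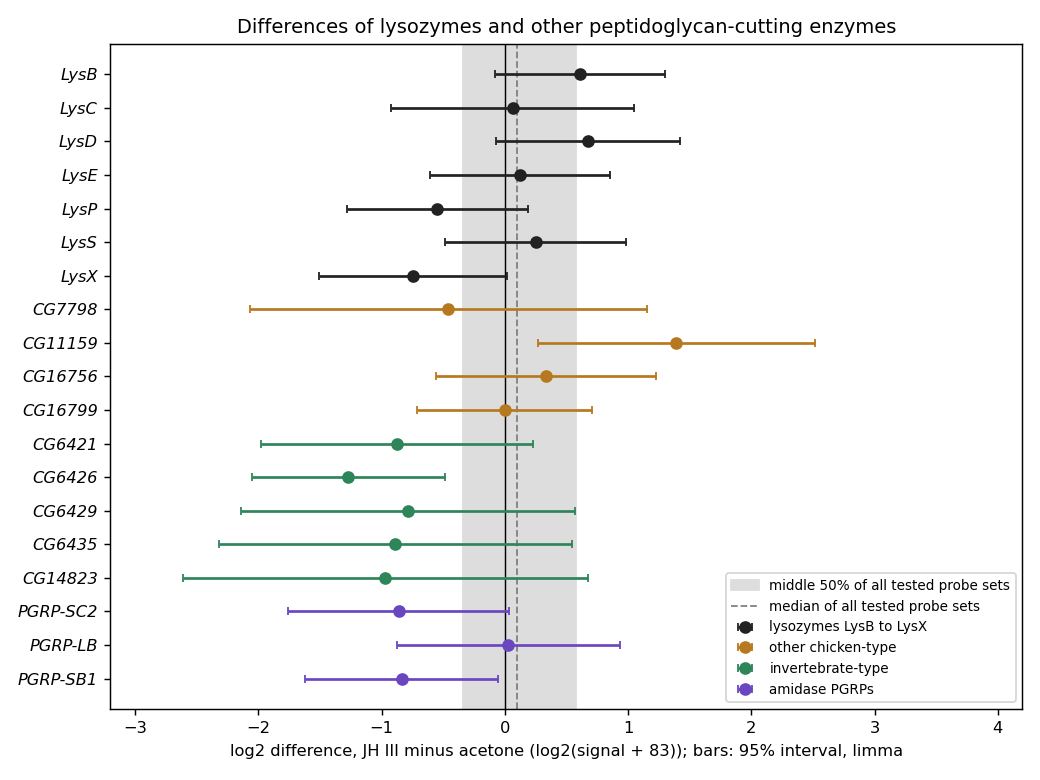
Log2 difference, JH III minus acetone, with its 95% interval from limma, for the 7 lysozymes, the 4 other chicken-type and 5 invertebrate-type lysozyme genes tested, and 3 amidase PGRPs. The band holds the middle 50% of all tested probe sets (-0.34 to 0.58), the dashed line is their median (0.10), and the intervals of the 7 lysozymes all include 0.

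The amidases among peptidoglycan recognition proteins cut the peptide side chains of peptidoglycan. Of 6 listed, 4 had a probe set of their own, 3 were tested and 0 were called. PGRP-SB1 read 842 and 1172 with JH III and 2191 and 1544 with acetone (log2 difference -0.84 ± 0.39 SE, limma adjusted p = 0.649). Its groups did not overlap, as in 15.3% of all tested probe sets in this direction. PGRP-SC2, a gut amidase, had 325 in JH III replicate 1 and 2051 in JH III replicate 2 against 1811 and 1438 with acetone (-0.86 ± 0.45 SE, limma adjusted p = 0.710). Without JH III replicate 1 the difference of PGRP-SC2 was 0.33. PGRP-LB, which dampens the Imd response by destroying free peptidoglycan, was at 0.03 ± 0.46 (SE). PGRP-SB2 was under the control level on all arrays. PGRP-SC1a and PGRP-SC1b share their probe sets, and the brighter one overlapped between groups (0.25 ± 0.38 SE).

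Digestive enzymes of the gut, where most of these lysozymes are known to be made, gave 0 calls in 47 tested of 57 listed. Their differences were negative in 36 and positive in 11, where 56.1% of all tested probe sets were positive (median -0.35, against 0.10 over all tested probe sets). An unadjusted p under 0.05 was found for 6, all lower (over the array 3.75% were lower at that p), led by the maltases Mal-A1 (-1.46 ± 0.38 SE), Mal-A4 (-1.36 ± 0.46 SE) and Mal-A7 (-2.05 ± 0.69 SE, at 66.7 and 128 with JH III, both under the control level), with limma adjusted p of 0.111, 0.372 and 0.374. Mal-A1 read 1724 and 2536 with JH III and 11375 and 3030 with acetone, and without acetone replicate 1 its difference was -0.52. Mal-A6 was next (-1.66 ± 0.65 SE). Over the 47 tested enzymes the median leaned on JH III replicate 1, the array that stood apart. It was -0.11 without that array, with 33 negative, and -0.59 without JH III replicate 2, with 34 negative. Of 7 measured midgut markers, 6 are also in the list of digestive enzymes and add no separate evidence. All 7 had a negative difference, and their summed signal was 77912 and 129627 with JH III and 180895 and 119739 with acetone. On the same arrays the lysozymes known from the midgut were at 0.61 (LysB), 0.67 (LysD), 0.12 (LysE) and 0.06 (LysC). LysC and LysE turned negative after median centring, and the probe sets of these genes may hold RNA of one another. LysX and LysS, known from the gut at other stages, were at -0.74 and 0.25. The part of gut RNA content in the lysozyme values was not tested.

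Markers of adult females were present, and those of males were low or under the control level. Yp1, a yolk protein, read 19111 to 37797 on the 4 arrays, and all 8 measured female markers were above the control level on at least 1 array. Of 12 male markers, 7 were under that level on all 4 arrays, among them the testis gene dj and the accessory gland gene Acp26Aa, and 0 exceeded it on all 4. The other 5 exceeded it on at least 1 array, with Mst84Da reading 625 and 520 with JH III and 430 and 118 with acetone, and Mst87F 585 and 94.5 with JH III and 318 and 626 with acetone. The summed signal of the 12 was 2338 and 1588 with JH III and 1424 and 1670 with acetone. Of 5 salivary gland markers, Sgs8 (439 to 638) and Eig71Ee (233 to 536) were above the control level on all arrays. Sgs3, Sgs5 and Sgs7 were under it on all. Whether these markers report the adult gland, from which LysP is known, was not tested.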

How the data were processed

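Transcripts were measured in whole females with 4 Affymetrix DrosGenome1 arrays, 2 per treatment, with groups and replicate numbers as in the titles. Each deposited value is the linear intensity of a probe set on an array, scaled by the authors to a common trimmed mean, as the values show. Per the labels, RNA came from a Trizol and chloroform extraction and the target carried biotin. No source used here names the software that summarised probes. The deposited description files held no expression values and gave chip lot, fluidics module and scan time.

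Of 14010 probe sets 44 were controls. Of the rest, 12443 had 1 symbol in the platform annotation, 327 several and 1196 none. The values were tested as log2(signal + 83), where 83 is their 25th percentile, without the 25% of probe sets of lowest mean. limma 3.58.1 in R 4.3.3 (lmFit, eBayes with a trend, two-sided) was used and p-values were adjusted over the 10474 tested probe sets (Benjamini-Hochberg). Residual degrees of freedom were 2, and 67.4 once moderated, so that most of the spread was borrowed from other probe sets. Precision is limited by the 2 arrays in each group. Replicates were separate pools of females.

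The members, the lists, the named genes and the tests were chosen with earlier results of these data known. Named genes were every member, up to 4 genes of smallest p and any called gene from each list, and the 3 nearest patterns to each member; further list genes and markers were named after their values were seen. A gene with several probe sets was represented by the brightest. The fit was tested on simulated data with 50 probe sets at each size of change. It called 6% of those changed 2-fold, 38% of those changed 4-fold, 60% of those changed 8-fold and 94% of those changed 16-fold. The simulated noise was independent and normal, with the moderated spread of the fit itself, and held no differences in array quality or chip lot. These shares may therefore not hold for the real arrays. The alternatives comprised other pseudocounts (1, and the median of 256), quantile normalization, median centring, filters of 0 or 50%, a fit with no variance trend, a block for the replicate number, each array left out, and the per-gene test that the labels name (the methods' t-test, two-sided with equal variances). Samples of the same replicate number did not deviate together (correlation -0.11 over probe sets). RefSeq gave names and gene order only, and no coordinates are given because no source used here gives the arrays' build. Tables were made with Python 3.11.15, pandas 2.3.3, numpy 2.4.6 and matplotlib 3.10.9.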

Additional observations from a re-analysis of the deposited data

How the results depend on the processing

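Of the 7 lysozymes, 0 were called in any of the 14 alternatives, where their lowest adjusted p was 0.248 (LysD without JH III replicate 2). LysB, LysD, LysP and LysX kept their sign in all 14. The filters, the fit with no trend, the t-test and the pairings of replicate numbers leave the difference itself unchanged. The sign could turn only with another pseudocount, another scaling or an array left out. LysC turned to -0.17 with median centring and -0.10 with quantile normalization, and to -0.50 without JH III replicate 2 and -0.088 without acetone replicate 2. LysE turned to -0.12 with median centring and -0.044 without acetone replicate 1. With 1 array left out, the ranges of the log2 difference were 0.46 to 0.76 for LysB, -0.50 to 0.63 for LysC, 0.30 to 1.05 for LysD, -0.04 to 0.28 for LysE, -0.65 to -0.45 for LysP, -0.23 to 0.73 for LysS and -1.09 to -0.39 for LysX. Median centring moved the median of all tested probe sets from 0.10 to -0.14, and quantile normalization moved it to 0.01. An unadjusted p under 0.05 was reached by LysB and LysD after quantile normalization, LysX after median centring, LysP in the methods' t-test, LysD and LysX without acetone replicate 2, LysD without JH III replicate 2, and LysB, LysD and LysX with the crossed pairing of replicate numbers described next.

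Over the whole array the 17 calls became 0 without a trend and in the methods' t-test, with 696 and 606 probe sets at an unadjusted p under 0.05. They became 2 with quantile normalization, median centring, no filter, a filter of 50% or the replicate block, and 3 to 36 with 1 array left out. The replicate block called 0 lysozymes and changed no call among the lists. Crossed pairing of the replicate numbers, added after seeing the data, gave 109 calls over the array, 1 invertebrate-type lysozyme and 1 digestive enzyme among them, and 0 of the 7 lysozymes. With 1 array left out, 0 to 1 digestive enzymes were called (1 without acetone replicate 2). The causes were not tested. In a fit that leaves out an array the lone sample of a group is assumed to vary like the others.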

Other observations

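Of the genes beside the lysozymes on the chromosome, CG13912, Aplip1, CG9119 and CG33966 were tested. Among them limma called 0, against 0.162% of all tested probe sets. The low-signal gene mwh was not tested, and Trhn, meep and CG33965 had no probe set of their own. CG13912, the second gene before LysX in the RefSeq order, read 551 and 1076 with JH III and 1960 and 1235 with acetone (log2 difference -0.94 ± 0.42 SE, limma adjusted p = 0.636). Both JH III arrays lay below both acetone arrays there, as they did for LysX and for 15.3% of all tested probe sets. Aplip1, the next gene after LysX, codes for a scaffold protein of axonal transport. It read 914 and 404 with JH III and 299 and 352 with acetone (0.77 ± 0.57 SE, limma adjusted p = 0.782). Here both JH III arrays lay above both acetone arrays, as in 22.2% of all tested probe sets. CG9119, which directly precedes LysB, was at 0.83 ± 0.61 (SE), with acetone values of 716 and 88.6, the second of them under the control level. These genes were chosen by position, after the values of the lysozymes were known.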
